A study of Mus musculus with 9 samples.

Results

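The 40 genes described here encode the proteins that build autophagosomes, select their cargo and mark mitochondria for removal. They were chosen by name, with earlier results of these data known, and each matched a single entry among the 54532 genes of the deposited tables. By role they are 5 genes of the ULK complex, 5 of the autophagy PI3-kinase complex, 5 of the ATG9, ATG2 and WIPI group, 7 of the conjugation machinery, 4 ATG4 proteases, 5 ATG8 family genes, 5 cargo receptors and 4 mitophagy genes. The study sequenced poly A enriched RNA of 3T3-L1, a mouse fibroblast line whose confluent cells turn into adipocytes under a hormonal medium, to ask how lysine shortage acts on that process. Undifferentiated cells had been held at confluence for 3 days in high glucose DMEM with calf serum. Differentiated cells were then kept for 3 days in a medium of lysine-free and arginine-free DMEM with foetal bovine serum, arginine and 800 μM lysine, to which insulin (10 μg/mL), rosiglitazone (1 μM), the phosphodiesterase inhibitor IBMX (0.5 mM) and the glucocorticoid dexamethasone (1 μM) had been added. Lysfree cells were kept for the same 3 days in the same medium with 0 μM lysine added, in which the study still measured traces of lysine. Each group had n = 3 libraries. Basal medium, serum, hormones and, as described, time after confluence thus differed together between Undifferentiated and the other groups. Differentiated and Lysfree differed in added lysine.

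Macroautophagy encloses cytoplasm in a double membrane that is delivered to lysosomes, where its content is broken down and amino acids are returned to the cell. The ULK kinase complex starts the process when nutrients are short, a lipid kinase complex marks the site, a ubiquitin-like conjugation system attaches ATG8 proteins to the growing membrane, and receptors that bind ATG8 proteins bring in cargo. Mitophagy uses receptors on the mitochondrial outer membrane or the kinase PINK1 to the same end. In fat cell differentiation autophagy is known to be required for the storage of triglyceride in a single large droplet, and mitophagy is known to take part in the remodelling of mitochondria. Transcript levels of these genes do not measure autophagic flux, and many of the proteins are controlled after translation.

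Total counts ranged from 15880144 to 21806693 per library. All 40 genes had counts in the libraries of each comparison, from 20 to 389 for Atg16l2 and from 8748 to 24989 for Sqstm1, so that a call was possible for each of them. The summed FPKM (fragments per kilobase of gene length, relative to library size) of 8 adipocyte markers was 297.8 to 378 in Undifferentiated, 6480.0 to 6792 in Differentiated and 234.3 to 311 in Lysfree libraries, and that of 10 preadipocyte and fibroblast markers was 4919 to 5296, 1056 to 1069 and 1804 to 1831. The summed adipocyte marker level of the group labelled Lysfree was therefore low, as in the Undifferentiated group. By single marker most were lower still, with a median log2 fold change of -1.15 in Lysfree vs Undifferentiated (-5.29 to 0.40). The absence of lysine and the absence of the adipocyte programme cannot be told apart in what follows. In RNA of whole cultures a change in the share of cells of a kind and a change in RNA per cell cannot be told apart either. Adgre1, Itgam, Epcam and Myod1, which define macrophages, myeloid cells, epithelium and muscle, were at 0 in every library, and 4 of 5 leukocyte, 4 of 4 endothelial, 3 of 4 epithelial and 4 of 4 muscle markers were under 1 FPKM in every library, with Cd14 and Krt18 as the exceptions. The labels do not say whether the libraries of a group came from separate cultures, so p values measure the spread between these libraries. The test pools that spread over genes, partly in both comparisons with Lysfree and fully in Differentiated vs Undifferentiated. In the latter, p values and standard errors therefore rest on a spread pooled over genes and not on that of the single gene.

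Lysfree replicate 1 stood apart from the other Lysfree libraries. Its FPKM was at least 1.5-fold above their mean for 5 of the 40 genes (Rb1cc1, Atg10, Atg4a, Atg4c and Fundc1) and at least 1.5-fold below it for 3 (Map1lc3a, Atg4d and Pink1). The ratio ran from 0.455 for Map1lc3a to 1.71 for Atg10. Among the 11624 genes with a mean of at least 1 FPKM the same library was that far above for 4.94% and that far below for 11.1%. Values without this library are given beside results that it moved.

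**Figure D1:**
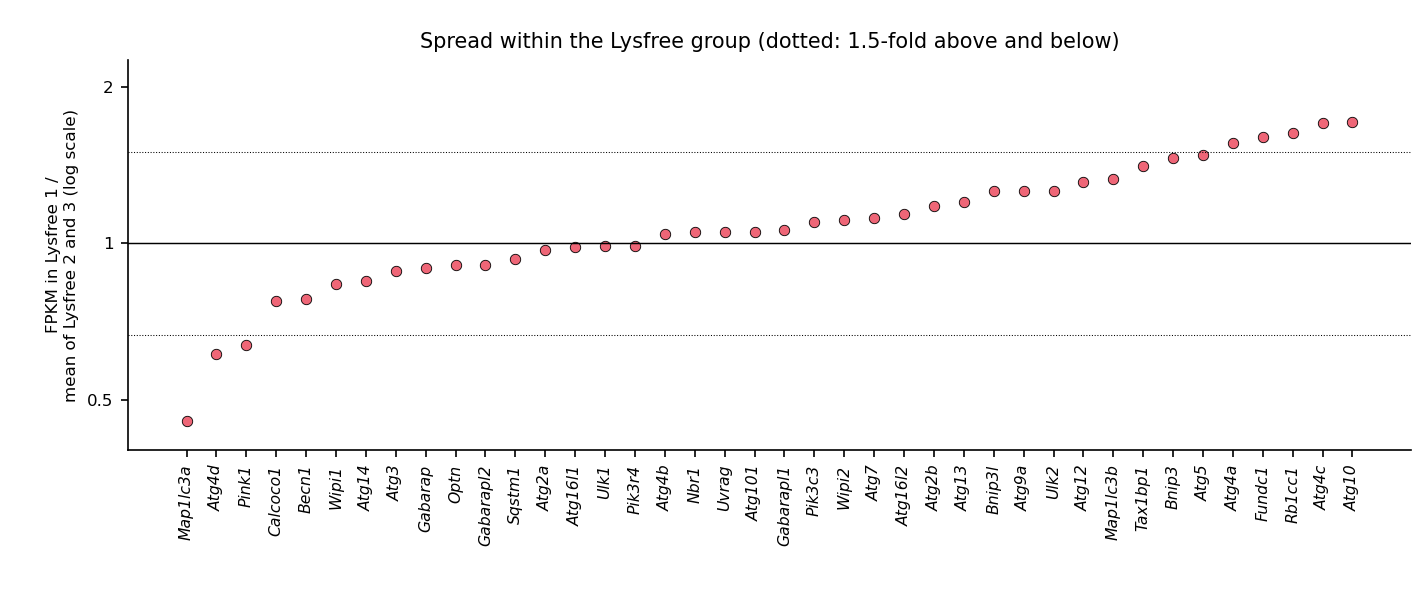
FPKM in Lysfree replicate 1 divided by the mean of Lysfree replicates 2 and 3 (log scale) for each of the 40 genes, ordered by the ratio. Dotted lines mark 1.5-fold above and below, and Map1lc3a (0.455) and Atg10 (1.71) are the extremes.

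Differential expression was tested with the edgeR quasi-likelihood test, and adjusted p values are Benjamini-Hochberg values over all genes tested. A gene called higher or lower had an adjusted p under 0.05, and a differentially expressed gene (DEG) also changed at least 2-fold, that is by 1 or more on the log2 scale in either direction. In Differentiated vs Undifferentiated, 15 of the 40 genes were higher and 18 lower, 37.5% and 45.0%, where 23% and 23.2% of the 24402 genes tested were called in these directions. As DEGs, 4 were higher (10.0%, against 10.4% of all genes tested) and 8 lower (20.0%, against 11.4%). In Lysfree vs Differentiated, 17 were higher and 11 lower, 42.5% and 27.5%, against 19.7% and 18.8% of 24130 genes, and 4 were DEGs higher (10.0%, against 8.14%) and 3 lower (7.5%, against 10.5%). In Lysfree vs Undifferentiated, 14 were higher and 12 lower, 35.0% and 30.0%, against 18% and 17.1% of 23994 genes, and 2 were DEGs higher (5.0%, against 5.52%) and 5 lower (12.5%, against 8.76%).

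Shares among expressed genes were higher than among all genes tested. In Differentiated vs Undifferentiated 13869 genes passed the filter on low counts that edgeR offers, and of these 37.3% were higher and 37.7% lower, 15.2% and 17% as DEGs. In Lysfree vs Differentiated the shares were 33.2%, 30%, 12.7% and 15.4% of 13617 genes, and in Lysfree vs Undifferentiated 30.5%, 27.8%, 8.54% and 13.1% of 13648. The median log2 fold change of the 40 genes was -0.14 in Differentiated vs Undifferentiated (0.02 over all genes tested), 0.15 in Lysfree vs Differentiated (-0.06) and 0.15 in Lysfree vs Undifferentiated (-0.02). At an adjusted p under 0.05 the shares of the 40 lay closer to those of expressed genes than to those of all genes, and as DEGs they lay below those of expressed genes except for the 20.0% that were lower in Differentiated vs Undifferentiated. The 3 comparisons share libraries pairwise, so their values are set side by side for each gene and not counted together.

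**Figure D2:**
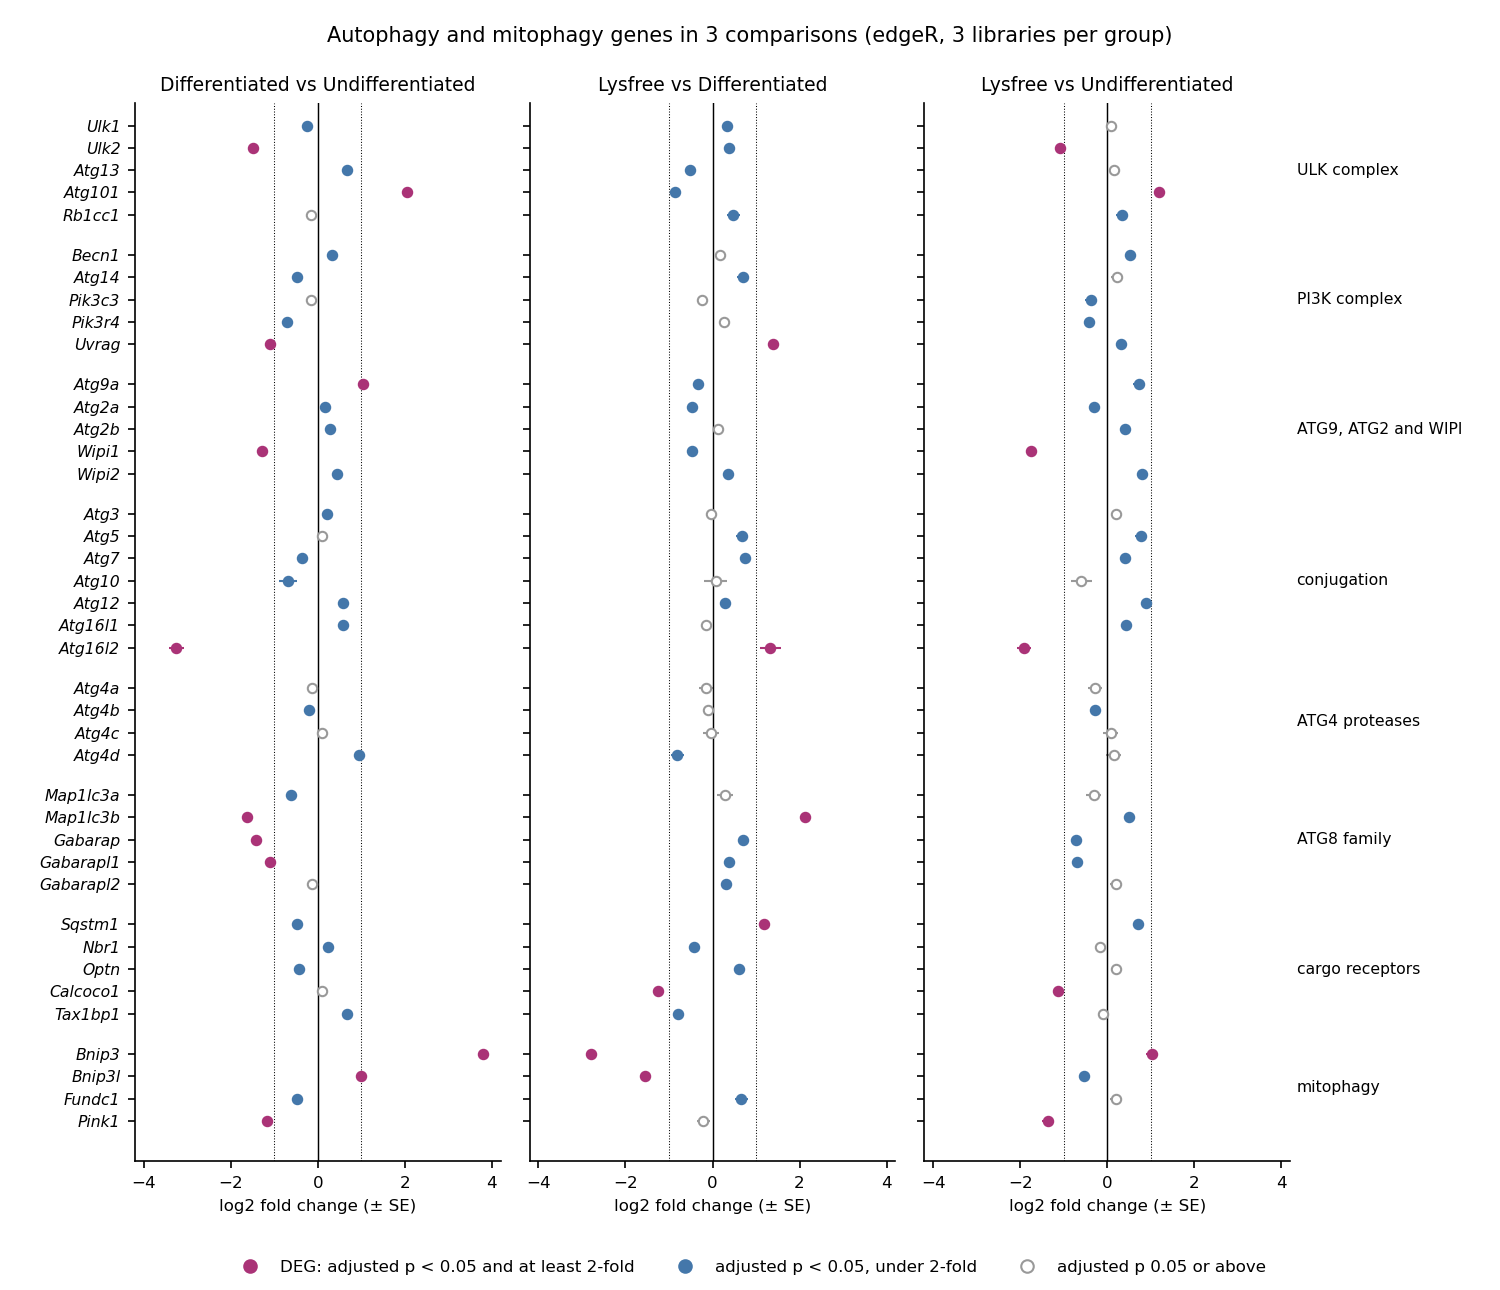
Log2 fold change with its standard error (SE) for the 40 genes, grouped by role, in the 3 comparisons. Filled purple points are DEGs, filled blue points have an adjusted p under 0.05 with less than a 2-fold change, open points were not called, and dotted lines mark a 2-fold change. Bnip3 lies farthest to the right in Differentiated vs Undifferentiated (3.80) and farthest to the left in Lysfree vs Differentiated (-2.79).

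Bnip3, among the mitophagy genes, held the change of largest size of the 40 genes in Differentiated vs Undifferentiated and in Lysfree vs Differentiated. It encodes a receptor on the mitochondrial outer membrane that binds ATG8 proteins and is a classical hypoxia-induced gene, and was at 20.9, 20.8 and 20.0 FPKM in the Undifferentiated libraries, 304, 275 and 295 in the Differentiated and 51.2, 35.2 and 35.0 in the Lysfree libraries. The groups did not overlap, Differentiated was highest in all 3 libraries, and Lysfree lay between. Bnip3 (chr7:138890836-138909519, minus strand, GRCm38) rose 13.9-fold in Differentiated vs Undifferentiated (log2 fold change 3.80 ± 0.06 (SE), with an adjusted p below the smallest number that R stores) and fell 6.89-fold in Lysfree vs Differentiated (-2.79 ± 0.12, adjusted p = 8.2e-14). In Lysfree vs Undifferentiated it was still higher (1.02 ± 0.12, adjusted p = 2e-08), by less than 2-fold (0.79) without Lysfree replicate 1. An opposite-strand gene of the annotation, Gm45507, covers 22.3% of its exonic bases.

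Bnip3l (also NIX), its paralogue and the receptor that clears mitochondria from maturing red cells, was at 35.4, 35.1 and 36.3 FPKM in Undifferentiated, 73.8, 71.3 and 73.0 in Differentiated and 27.5, 23.0 and 20.4 in Lysfree libraries. Lysfree was the lowest group and did not overlap either of the others. It rose just 2-fold in Differentiated vs Undifferentiated (1.00 ± 0.05, adjusted p = 8.9e-74), fell 2.94-fold in Lysfree vs Differentiated (-1.56 ± 0.10, adjusted p = 5e-11) and was 1.46-fold lower in Lysfree vs Undifferentiated (-0.54 ± 0.11, adjusted p = 8.5e-05). Unlike Bnip3, it thus ended below its level in undifferentiated cells. Over the alternative fits the rise of Bnip3l in Differentiated vs Undifferentiated ran from 0.97 to 1.03, on either side of 2-fold.

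Pink1, the kinase that accumulates on damaged mitochondria and marks them for removal, was at 24.2, 28.1 and 24.4 FPKM in Undifferentiated, 11.3, 10.9 and 12.7 in Differentiated and 6.96, 11.4 and 10.5 in Lysfree libraries. Both groups in differentiation medium lay below Undifferentiated without overlap, and they overlapped each other. It fell 2.24-fold in Differentiated vs Undifferentiated (-1.16 ± 0.07, adjusted p = 4.7e-54) and 2.57-fold in Lysfree vs Undifferentiated (-1.36 ± 0.14, adjusted p = 6.3e-10), and was not called in Lysfree vs Differentiated (-0.21 ± 0.15, adjusted p = 0.31, and -0.05 without Lysfree replicate 1). Fundc1, an outer membrane receptor whose product binds ATG8 proteins under hypoxia, moved the other way from Bnip3, with -0.48 in Differentiated vs Undifferentiated (adjusted p = 4.6e-10) and 0.67 in Lysfree vs Differentiated (adjusted p = 0.00064, and 0.39, still called, without Lysfree replicate 1, but not called by limma over all genes, 0.54 with adjusted p = 0.076). Summed over the 4 mitophagy genes, the level was 105 ± 1.90 FPKM (SD, n = 3) in Undifferentiated, 393 ± 17.4 in Differentiated and 99.7 ± 17.8 in Lysfree cells, and Bnip3 made up most of it in Differentiated cells.

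**Figure D3:**
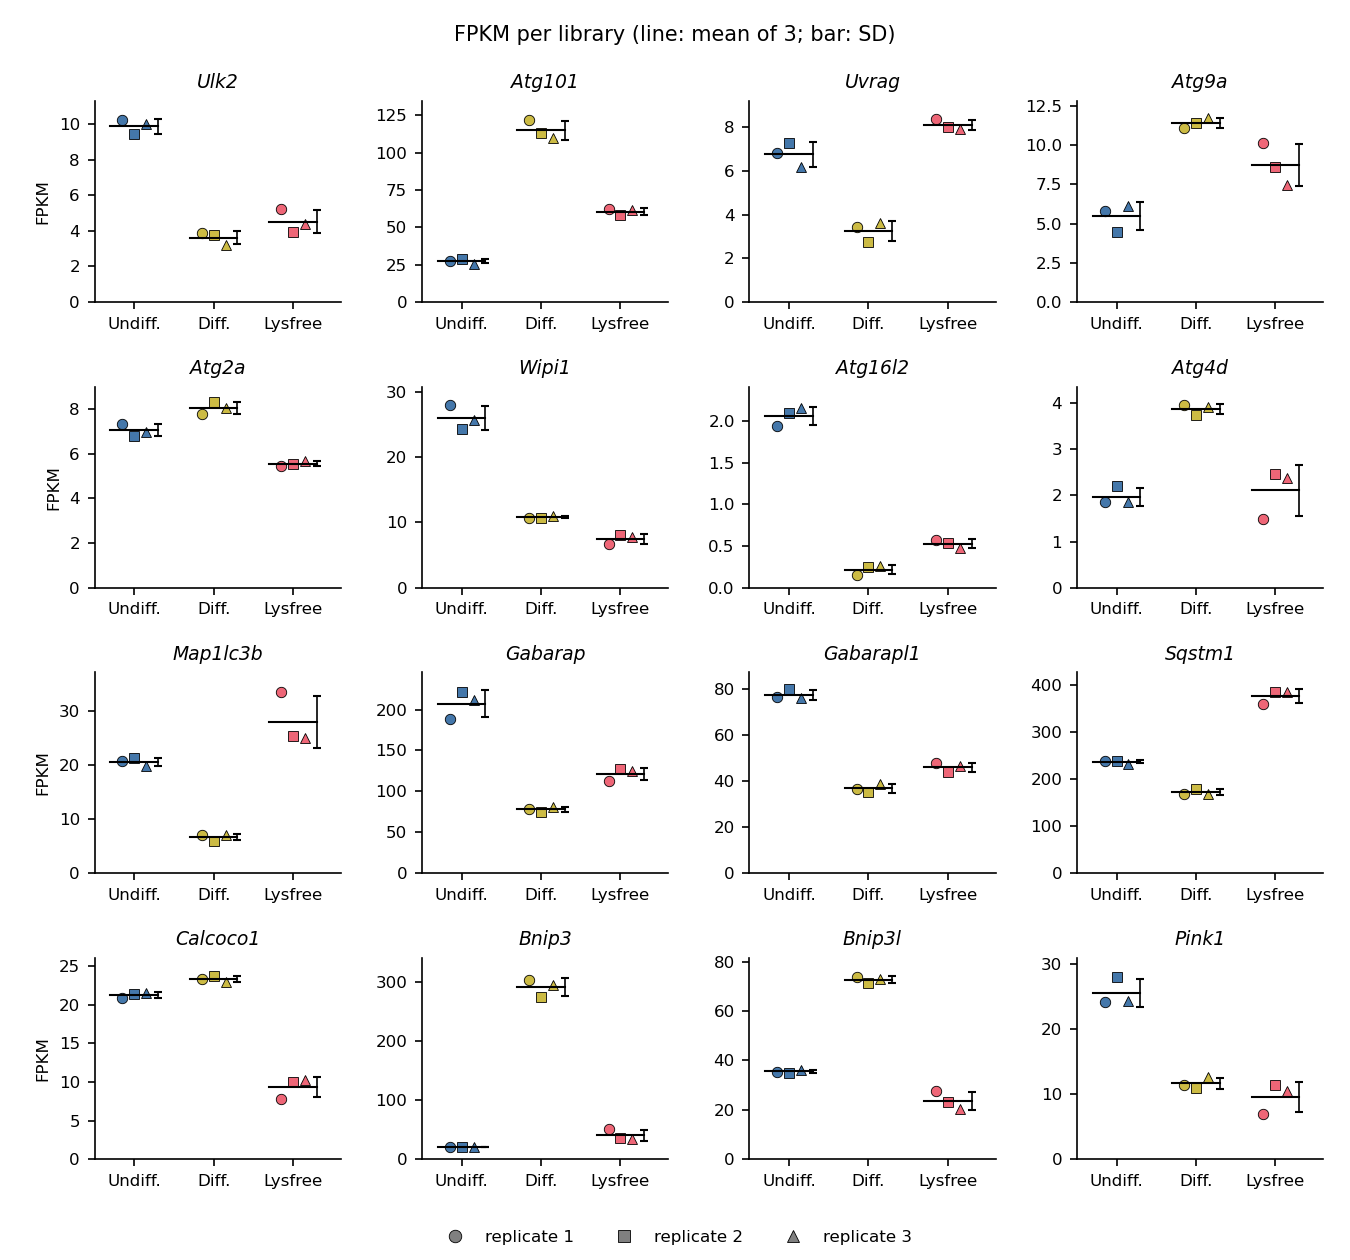
FPKM in each of the 9 libraries for the 14 genes that were DEGs in any comparison and for Atg2a and Atg4d, each panel on its own linear scale from 0. Symbols mark replicates, horizontal lines the mean of 3 and bars the standard deviation (SD). Bnip3 stands at 275 to 304 FPKM in Differentiated libraries and at 20.0 to 51.2 in the others, whereas Map1lc3b is lowest in Differentiated libraries.

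Genes that respond to hypoxia were measured beside Bnip3 and Bnip3l from a list of 19 hypoxia-inducible targets. In Differentiated vs Undifferentiated 18 of the 19 were higher, 16 of them DEGs, with a median log2 fold change of 2.02. In Lysfree vs Differentiated 15 were lower and none higher, 14 of them DEGs, with a median of -1.29. Of expressed genes 37.3% were higher in the former (15.2% as DEGs) and 30% lower in the latter (15.4%). In Lysfree vs Undifferentiated 14 of the 19 were still higher, 5 of them DEGs, and 1 was lower, with a median of 0.55. Of expressed genes 30.5% were higher and 27.8% lower in that comparison. Egln3, an oxygen-sensing prolyl hydroxylase, was at a mean of 19.1, 211 and 26.8 FPKM in Undifferentiated, Differentiated and Lysfree cells and fell by 2.91 on the log2 scale in Lysfree vs Differentiated (adjusted p = 4.7e-16). Falls of the same comparison were -2.97 for Ankrd37, -3.59 for the carbonic anhydrase Car9, -2.42 for Ndrg1, -2.28 for the glycolytic regulator Pfkfb3, -1.90 for the pyruvate dehydrogenase kinase Pdk1, -1.87 for Mxi1 and -1.62 for the glucose transporter Slc2a1. Hif1a and Epas1, the oxygen-regulated subunits of the hypoxia-inducible factors, went in opposite directions: Hif1a transcripts were at 31.9, 30.6 and 32.2 FPKM in Differentiated and 104, 70.2 and 69.1 in Lysfree libraries (1.42 ± 0.12, adjusted p = 2.8e-09), and Epas1 transcripts at 7.56, 7.75 and 8.19 and 0.204, 0.316 and 0.272 (-4.81 ± 0.17, adjusted p = 2.5e-15). Neither gene overlapped between these groups, and the part of either factor in the levels of Bnip3 was not tested.

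The promoter of Bnip3 is shown because the gene carried the largest change and because hypoxia-inducible factors are known to bind the motif ACGTG and, with a G in the first place, the motif GCGTG. The stretch is chr7:138909527-138909636, minus strand, GRCm38.p6, from the RefSeq promoter window of 250 bases before to 50 after each transcription start, written 5′ to 3′ with both of these motifs, on either strand, in capitals.
Bnip3: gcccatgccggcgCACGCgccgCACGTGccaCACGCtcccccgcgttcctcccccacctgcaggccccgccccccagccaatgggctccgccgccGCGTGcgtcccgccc
It runs from 130 to 21 bases before the start and holds 5 matches of these letters in 4 places, among them CACGTG, a palindrome that is counted on both strands as ACGTG. On either strand, ACGTG occurs in 19.6% and GCGTG in 32.4% of all 32851 RefSeq promoter windows of this length, so a match is a description of the sequence and no site of binding. Nor are the motifs particular to Bnip3. Among the genes described here 33 matched such a window, and 16 of these held ACGTG and 21 GCGTG. Atg9a and Tax1bp1, which moved in the same directions as Bnip3, held both motifs. So did Uvrag, which moved the other way (-1.09 in Differentiated vs Undifferentiated and 1.38 in Lysfree vs Differentiated). Map1lc3b, with 5 matches of GCGTG, also moved the other way (-1.64 and 2.11).

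The summed level of the ATG8 family was lowest in Differentiated cells. These small ubiquitin-like proteins coat the autophagosome membrane and are bound by the cargo receptors. The summed FPKM of the 5 genes was 344 to 385 in Undifferentiated, 160.5 to 170.4 in Differentiated and 228 to 255 in Lysfree libraries, with no overlap between groups. In Differentiated vs Undifferentiated 4 of the 5 were lower and 3 of these were DEGs, and in Lysfree vs Differentiated 4 of the 5 were higher and 1 was a DEG, where 37.7% of expressed genes were lower in the former comparison and 33.2% higher in the latter. The call of Gabarapl2, among these 4, depended on the test.

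Map1lc3b, which encodes LC3B, the protein most used to follow autophagosomes, was at 20.7, 21.2 and 19.7 FPKM in Undifferentiated, 7.06, 6.06 and 7.12 in Differentiated and 33.5, 25.4 and 25.0 in Lysfree libraries. Lysfree was the highest group and no group overlapped another. It fell 3.11-fold in Differentiated vs Undifferentiated (-1.64 ± 0.06, adjusted p = 1.8e-148), rose 4.33-fold in Lysfree vs Differentiated (2.11 ± 0.11, adjusted p = 2.5e-12), the largest rise of the 40 genes there, and was 1.40-fold higher in Lysfree vs Undifferentiated (0.49 ± 0.11, adjusted p = 0.00033). Without Lysfree replicate 1, its highest library, the difference was 1.95 in Lysfree vs Differentiated and 0.32, still called, in Lysfree vs Undifferentiated.

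Gabarap, the most abundant of the family and founder of the branch that acts late in autophagosome maturation, was at 189, 221 and 212 FPKM in Undifferentiated, 79.0, 75.4 and 81.5 in Differentiated and 112, 127 and 124 in Lysfree libraries. Its paralogue Gabarapl1 was at 76.3, 79.7 and 75.7, 36.6, 35.1 and 38.7 and 47.6, 43.8 and 46.4 FPKM in the same order. For both genes Undifferentiated was highest, Differentiated lowest and Lysfree between them, without overlap. Gabarap fell 2.69-fold in Differentiated vs Undifferentiated (-1.43 ± 0.05, adjusted p = 2.6e-150) and rose 1.61-fold in Lysfree vs Differentiated (0.69 ± 0.09, adjusted p = 1.5e-06). Gabarapl1 fell 2.14-fold (-1.10 ± 0.06, adjusted p = 1e-73) and rose 1.31-fold (0.38 ± 0.09, adjusted p = 0.0019), and 28.3% of its exonic bases are shared with an opposite-strand gene. Both stayed below Undifferentiated in Lysfree cells, with -0.72 and -0.70 on the log2 scale. Gabarapl2 was not called in Differentiated vs Undifferentiated (-0.13) and was 0.31 in Lysfree vs Differentiated (adjusted p = 0.038), and it was no longer called without any 1 of the Differentiated libraries or without Lysfree replicate 2 (0.23 to 0.37 over all libraries left out in turn), nor by DESeq2 (0.28, adjusted p = 0.052) or limma. Map1lc3a, for LC3A, fell in Differentiated vs Undifferentiated (-0.61, adjusted p = 6.2e-15) and was at 19.5, 41.6 and 43.9 FPKM in Lysfree against 30.1, 29.7 and 30.5 in Differentiated libraries, so that it was not called with all libraries (0.29, adjusted p = 0.28) and was called higher without Lysfree replicate 1 (0.55).

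The make-up of the family was measured as the share of each gene. Per length, Gabarap made up 56.9% ± 1.72 (SD, n = 3) of the summed FPKM in Undifferentiated, 47.5% ± 0.464 in Differentiated and 49.3% ± 0.488 in Lysfree cells. The share of Map1lc3b was 5.65% ± 0.321, 4.07% ± 0.261 and 11.5% ± 2.79, and all 3 Lysfree libraries, at 14.7%, 9.94% and 9.82%, lay above the 6 others. The share of Map1lc3a was 12.4% ± 0.590, 18.2% ± 0.322 and 14.0% ± 4.77, and Lysfree replicate 1 had the lowest value, 8.55%, without which the difference between Lysfree and Differentiated was -1.43 instead of -4.17 percentage points. Gabarapl1 held 21.2% ± 0.826, 22.2% ± 0.421 and 18.8% ± 1.94, and Gabarapl2 3.89% ± 0.174, 8.01% ± 0.752 and 6.38% ± 0.459. An exact two-sided permutation test of 3 libraries against 3 cannot give a p below 0.1, and 12 of the 15 tests of a share between 2 groups gave that p of 0.1, so none could pass 0.05. FPKM divided the reads of Map1lc3b by a length of 7517 bases and those of Gabarap by 1844, and shares of CPM, which are not divided by length, put Map1lc3b at 31.5% to 41.1% of the family in Lysfree libraries and at 14.1% to 15.7% in Differentiated libraries.

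**Figure D4:**
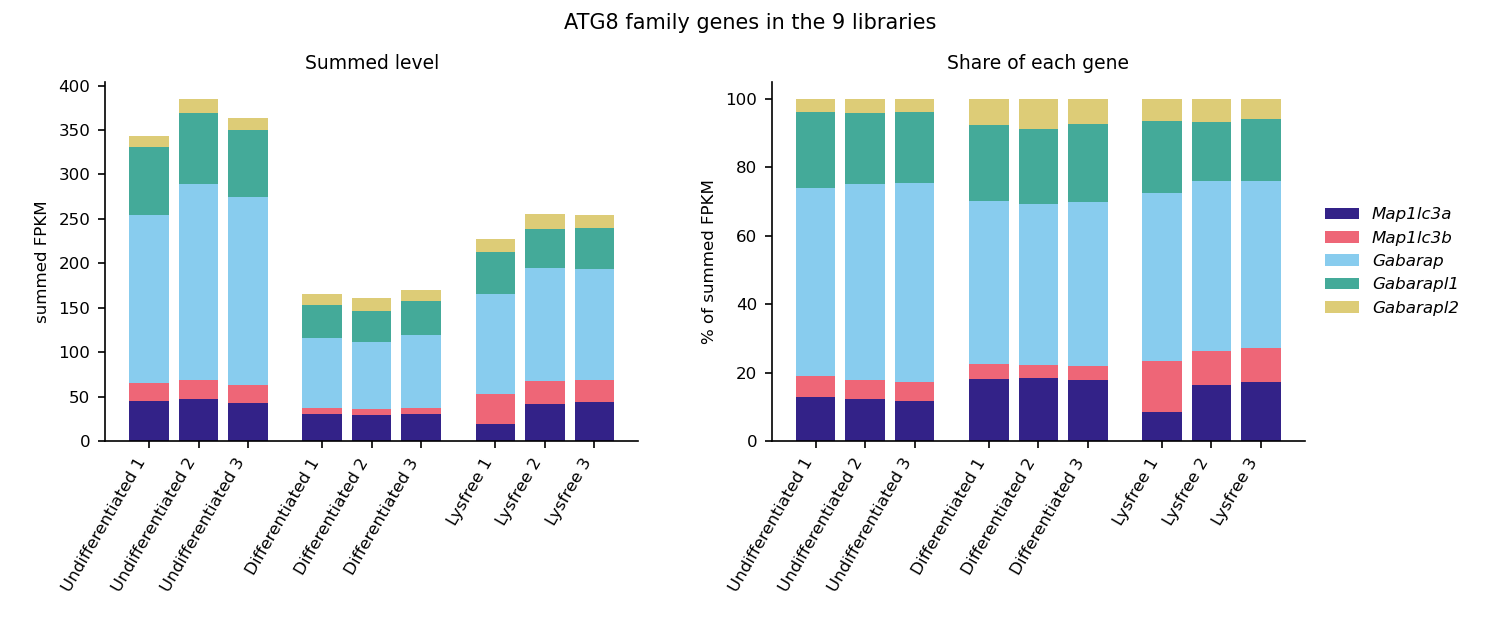
Summed FPKM of the 5 ATG8 family genes (left) and the percentage of that sum held by each gene (right) in each of the 9 libraries. The sum is 160.5 to 170.4 in the Differentiated libraries and higher in the others, and Map1lc3b takes 9.82% to 14.7% of it in the Lysfree libraries against at most 6.02% elsewhere.

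Cargo receptors split by gene. Sqstm1 (p62), the receptor that ties ubiquitinated proteins to LC3 and is itself degraded by autophagy, was at 238, 239 and 233 FPKM in Undifferentiated, 168.5, 179 and 168 in Differentiated and 358, 383.5 and 384 in Lysfree libraries, the highest level of the 40 genes in Undifferentiated and Lysfree cells. The groups did not overlap and Lysfree was highest. It fell 1.40-fold in Differentiated vs Undifferentiated (-0.49 ± 0.05, adjusted p = 4.7e-23), rose 2.28-fold in Lysfree vs Differentiated (1.19 ± 0.08, adjusted p = 5.3e-11) and was 1.64-fold higher in Lysfree vs Undifferentiated (0.71 ± 0.09, adjusted p = 5.1e-08). Mrnip on the opposite strand shares 17.3% of its exonic bases. Optn (optineurin), a receptor for ubiquitinated mitochondria and bacteria, changed by -0.42 and 0.61 in the first and the second of these comparisons (adjusted p = 8.4e-06 and 0.00017).

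Calcoco1, a receptor in selective autophagy of endoplasmic reticulum and Golgi and a nuclear receptor coactivator, was at 20.9, 21.4 and 21.5 FPKM in Undifferentiated, 23.3, 23.7 and 22.9 in Differentiated and 7.83, 9.95 and 10.3 in Lysfree libraries. Lysfree was lowest and lay apart from both other groups. It was not called in Differentiated vs Undifferentiated (0.11 ± 0.06, adjusted p = 0.13), where limma on log2(FPKM + 1) did call it (0.13), and it fell 2.38-fold in Lysfree vs Differentiated (-1.25 ± 0.11, adjusted p = 4.2e-09) and 2.19-fold in Lysfree vs Undifferentiated (-1.13 ± 0.11, adjusted p = 3e-10). The ubiquitin-binding receptors Tax1bp1 and Nbr1 also fell in Lysfree vs Differentiated, by 0.80 and 0.41 on the log2 scale (adjusted p = 4.1e-06 and 0.00044), after values of 0.68 and 0.23 in Differentiated vs Undifferentiated (adjusted p = 1.5e-36 and 8.3e-05). The 5 receptors summed to 307 ± 1.99 FPKM in Undifferentiated, 259.6 ± 6.65 in Differentiated and 429.8 ± 12.1 in Lysfree cells, of which Sqstm1 was the main part.

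Within the ULK complex the kinases Ulk1 and Ulk2 and the partners Atg13 and Atg101 moved in opposite directions in Differentiated vs Undifferentiated, and again in Lysfree vs Differentiated. Atg101, which holds the adaptor Atg13 in the complex, was at 27.5, 28.6 and 25.7 FPKM in Undifferentiated, 122, 113 and 109.9 in Differentiated and 62.4, 58.0 and 61.4 in Lysfree libraries. The groups did not overlap, and Lysfree lay between the others. It rose 4.12-fold in Differentiated vs Undifferentiated (2.04 ± 0.06, adjusted p = 5.9e-233), fell 1.81-fold in Lysfree vs Differentiated (-0.86 ± 0.09, adjusted p = 6.7e-08) and was 2.29-fold higher in Lysfree vs Undifferentiated (1.20 ± 0.11, adjusted p = 2.7e-11). Atg13 changed by 0.66 and -0.51 in the first and the second of these (adjusted p = 2.2e-21 and 0.00026). Ulk2, a kinase of the complex, was at 10.2, 9.42 and 10.00 FPKM in Undifferentiated, 3.86, 3.78 and 3.19 in Differentiated and 5.25, 3.95 and 4.38 in Lysfree libraries, so that both groups in differentiation medium lay far below Undifferentiated. It fell 2.79-fold in Differentiated vs Undifferentiated (-1.48 ± 0.08, adjusted p = 1.3e-73) and 2.12-fold in Lysfree vs Undifferentiated (-1.08 ± 0.12, adjusted p = 4.8e-09), and its value in Lysfree vs Differentiated was 0.39 (adjusted p = 0.023). Ulk1, its paralogue and the main starter kinase, changed less, by -0.26 and 0.32 (adjusted p = 0.0006 and 0.0095). The scaffold Rb1cc1 (FIP200) was not called in Differentiated vs Undifferentiated (-0.14) and was 0.48 in Lysfree vs Differentiated (adjusted p = 0.011), which was 0.19, still called, without Lysfree replicate 1. In Lysfree vs Differentiated the call of Ulk1 was lost without Differentiated replicate 3, and that of Ulk2 without Differentiated replicate 2 or 3. That of Rb1cc1 was lost without Differentiated replicate 2, and limma called neither Ulk2 nor Rb1cc1 there. Ulk2 and Rb1cc1 were also not called with at least 10 counts in every library (adjusted p = 0.057 and 0.084). Rb1cc1 was not called with edgeR's expression filter either (adjusted p = 0.07). Leaving out each library in turn gave 0.30 to 0.34 for Ulk1, 0.25 to 0.47 for Ulk2 and 0.19 to 0.62 for Rb1cc1.

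In the PI3-kinase complex Uvrag stood out. Its product joins Beclin 1 and the lipid kinase in the form of the complex that acts on endosomes and late autophagosomes. Uvrag was at 6.83, 7.27 and 6.15 FPKM in Undifferentiated, 3.41, 2.72 and 3.61 in Differentiated and 8.38, 8.02 and 7.92 in Lysfree libraries. Differentiated was lowest, Lysfree highest and no group overlapped another. It fell 2.13-fold in Differentiated vs Undifferentiated (-1.09 ± 0.08, adjusted p = 5.2e-45) and rose 2.61-fold in Lysfree vs Differentiated (1.38 ± 0.11, adjusted p = 2e-09), and 17.6% of its exonic bases are shared with the opposite-strand Gm45187. Atg14, whose product takes the place of Uvrag in the form of the complex that starts autophagosomes, changed by -0.49 and 0.70 (adjusted p = 1.2e-05 and 0.00021). The common subunits moved less in Lysfree vs Differentiated and none of them was called: 0.18 for Becn1 (Beclin 1), -0.24 for the kinase Pik3c3 and 0.27 for its regulatory subunit Pik3r4. In Differentiated vs Undifferentiated Becn1 was higher (0.34, adjusted p = 1.9e-06), Pik3r4 lower (-0.70, adjusted p = 4.5e-19) and Pik3c3 not called (-0.15). Without Lysfree replicate 1, Becn1 (0.27), Pik3c3 (-0.30) and Pik3r4 (0.26) were called in Lysfree vs Differentiated, and the exons of Becn1 share 43.9% of their bases with Cntd1 on the opposite strand.

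Of the genes that supply membrane, Atg9a and Wipi1 were DEGs. Atg9a, a lipid scramblase on the vesicles that seed autophagosomes, was at 5.82, 4.45 and 6.16 FPKM in Undifferentiated, 11.1, 11.4 and 11.7 in Differentiated and 10.1, 8.61 and 7.47 in Lysfree libraries. Differentiated was highest, and the groups did not overlap. It rose 2.06-fold in Differentiated vs Undifferentiated (1.04 ± 0.07, adjusted p = 2.5e-43) and was -0.32 in Lysfree vs Differentiated (adjusted p = 0.024), and 32.6% of its exonic bases are shared with other genes, mainly Gm29253 on the same strand. The latter difference of Atg9a was not called without any 1 of the Differentiated libraries or without Lysfree replicate 3, and ran from -0.46 to -0.22 when each library was left out. Its rise in Differentiated vs Undifferentiated ran from 0.91 to 1.14 when each library was left out, on either side of 2-fold. Wipi1, which reads the lipid made by the PI3-kinase complex, was at 27.9, 24.3 and 25.6 FPKM in Undifferentiated, 10.7, 10.7 and 11.0 in Differentiated and 6.62, 8.01 and 7.83 in Lysfree libraries, with Lysfree lowest and no overlap. It fell 2.45-fold in Differentiated vs Undifferentiated (-1.29 ± 0.07, adjusted p = 2.3e-86), 1.38-fold in Lysfree vs Differentiated (-0.46 ± 0.11, adjusted p = 0.0018) and 3.35-fold in Lysfree vs Undifferentiated (-1.74 ± 0.11, adjusted p = 1.5e-14). Its paralogue Wipi2, which recruits Atg16l1, went the other way and was higher in each of the 3 comparisons (0.44, 0.36 and 0.81, adjusted p = 8.9e-14, 0.0019 and 2.7e-08).

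Atg2a and Atg2b encode tubes that carry lipid from the endoplasmic reticulum to the growing membrane. Atg2a was at 7.34, 6.81 and 6.98 FPKM in Undifferentiated, 7.78, 8.33 and 8.02 in Differentiated and 5.43, 5.54 and 5.66 in Lysfree libraries, with Lysfree lowest and no overlap between groups. It was 0.17 in Differentiated vs Undifferentiated (adjusted p = 0.038, not called by DESeq2), -0.47 in Lysfree vs Differentiated (adjusted p = 0.00051) and -0.30 in Lysfree vs Undifferentiated (adjusted p = 0.031). Atg2b was 0.29 (adjusted p = 3e-05), 0.12 (adjusted p = 0.4) and 0.41 (adjusted p = 0.0017) in the same comparisons. The first value of Atg2a ran from 0.14 to 0.20 when each library was left out and was not called in 5 of these 6 fits, all but that without Undifferentiated replicate 1. Its value in Lysfree vs Undifferentiated was likewise not called in 5 of 6 such fits, all but that without Lysfree replicate 1.

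Among the conjugation genes 4 of 7 were higher and none lower in Lysfree vs Differentiated, where 33.2% of expressed genes were higher and 30% lower. Without Lysfree replicate 1 Atg12 was not called and Atg16l1 was lower (-0.16, adjusted p = 0.025). Atg7, the activating enzyme shared by both conjugation reactions, was -0.35 in Differentiated vs Undifferentiated and 0.75 in Lysfree vs Differentiated (adjusted p = 1.4e-06 and 1.6e-06). Atg5, which is joined to Atg12 and with Atg16l1 places ATG8 proteins on the membrane, was 0.10 (adjusted p = 0.39) and 0.67 (adjusted p = 0.0004), the latter 0.44 without Lysfree replicate 1. Atg12 was 0.59 and 0.29 (adjusted p = 9.2e-15 and 0.047), and the latter was not called without Lysfree replicate 1 (0.13) or without Differentiated replicate 1 or 2 (0.26 and 0.27), nor by DESeq2 (0.26, adjusted p = 0.12), limma or the stricter filters on low counts. Atg3 and Atg10, the conjugating enzymes for ATG8 proteins and Atg12, were -0.03 and 0.07 in Lysfree vs Differentiated and Atg16l1 was -0.15, none of them called (adjusted p = 0.79, 0.85 and 0.25), and Atg10 was at -0.24, also not called, without Lysfree replicate 1. In Differentiated vs Undifferentiated Atg3 (0.22) and Atg16l1 (0.58) were higher and Atg10 (-0.68) lower (adjusted p = 0.0011, 1.5e-15 and 0.0017).

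Atg16l2, a paralogue of Atg16l1 that is dispensable for canonical autophagy, had the largest fall of the 40 genes in Differentiated vs Undifferentiated, at a low level. It was at 1.94, 2.09 and 2.15 FPKM in Undifferentiated, 0.153, 0.247 and 0.256 in Differentiated and 0.578, 0.539 and 0.475 in Lysfree libraries. The groups did not overlap, and Undifferentiated was far above the rest. It fell 9.49-fold in Differentiated vs Undifferentiated (-3.25 ± 0.16, adjusted p = 1.3e-88), was 2.52-fold higher in Lysfree vs Differentiated (1.33 ± 0.24, adjusted p = 0.00012) and 3.76-fold lower in Lysfree vs Undifferentiated (-1.91 ± 0.17, adjusted p = 2.6e-11). On log2(FPKM + 1), which understates changes of low genes, limma gave -1.33 in Differentiated vs Undifferentiated and 0.33 in Lysfree vs Differentiated, both still called, so that the latter rise was under 2-fold there.

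The ATG4 proteases trim ATG8 proteins before conjugation and free them afterwards, and none of the 4 was a DEG. Atg4d was at 1.85, 2.20 and 1.85 FPKM in Undifferentiated, 3.95, 3.74 and 3.90 in Differentiated and 1.48, 2.46 and 2.38 in Lysfree libraries, with Differentiated above both other groups, which overlapped. It was 1.92-fold higher in Differentiated vs Undifferentiated (0.94 ± 0.10, adjusted p = 2.2e-21) and 1.75-fold lower in Lysfree vs Differentiated (-0.81 ± 0.16, adjusted p = 0.00024), and Kri1 on the opposite strand shares 19.3% of its exonic bases. Atg4b, the main protease of the family, was -0.20 in Differentiated vs Undifferentiated (adjusted p = 0.0059, not called without Differentiated replicate 1, -0.18) and -0.09 in Lysfree vs Differentiated (adjusted p = 0.5). Atg4a (-0.14 and -0.15) and Atg4c (0.10 and -0.04) were called in neither, and without Lysfree replicate 1, where both were high, they were lower in Lysfree vs Differentiated (-0.41 and -0.35).

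Promoters that hold CACGTG are shown for the conjugation genes and Atg14, since this hexamer is the core of the motif bound by Tfeb, Tfe3 and Mitf, the factors known to switch on lysosomal and autophagy genes. Of the 40 genes 33 matched a RefSeq promoter (GRCm38.p6, 37 windows), and Rb1cc1, Becn1, Pik3c3, Atg12, Atg16l1, Map1lc3a and Bnip3l did not. CACGTG, which reads the same on both strands, was found in 5 of these 37 windows, belonging to Atg14, Atg3, Atg5, Atg7 and Bnip3. It was found in 7.15% of all 32851 windows. The 4 stretches are chr14:47568425-47568474 (minus strand), chr16:45158719-45158778 (plus), chr10:44268289-44268338 (plus) and chr6:114670946-114670995 (plus), each 5′ to 3′ with CACGTG in capitals. The RefSeq starts used for Atg14 and Atg7 lie well inside the gene as the deposited tables give it, so that these stretches are not at its outer end, whereas those of Atg3 and Atg5 lie close to it.
Atg14: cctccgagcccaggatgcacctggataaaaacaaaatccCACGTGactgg
Atg3: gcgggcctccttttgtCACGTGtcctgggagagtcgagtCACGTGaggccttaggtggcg
Atg5: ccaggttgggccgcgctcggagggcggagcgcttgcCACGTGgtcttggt
Atg7: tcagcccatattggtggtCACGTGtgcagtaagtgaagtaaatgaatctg
In Lysfree vs Differentiated Atg14 (0.70), Atg5 (0.67) and Atg7 (0.75) were higher, Atg3 (-0.03) was not called and Bnip3 (-2.79) was lower. Uvrag, Atg16l2, Map1lc3b and Sqstm1, which rose at least 2-fold, had no CACGTG in their windows. Whether Tfeb, Tfe3 or Mitf bind these promoters or take part in these changes was not tested.

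The transcriptional regulators of autophagy genes, a list of 23, were mixed, with 11 higher and 8 lower in Lysfree vs Differentiated. These are 47.8% and 34.8%, against 33.2% and 30% of expressed genes. Tfeb was at 3.00, 2.62 and 2.82 FPKM in Differentiated and 1.39, 1.35 and 1.61 in Lysfree libraries (-0.89 ± 0.15, adjusted p = 3.3e-05), and Tfe3 at 8.52, 8.20 and 8.05 and 11.1, 12.4 and 12.9 (0.62 ± 0.10, adjusted p = 1.5e-05). Tfeb thus fell and Tfe3 rose, both without overlap, and Mitf was not called (0.37 ± 0.16, adjusted p = 0.079). Flcn, which with its partners controls whether these factors enter the nucleus, was at a mean of 10.7 ± 0.249 FPKM (SD, n = 3) in Differentiated and 41.6 ± 4.29 in Lysfree cells (2.02 ± 0.10, adjusted p = 7.3e-13), and the partners Fnip1 (1.41) and Fnip2 (1.61) rose at least 2-fold as well. Foxo1 fell (-0.75, adjusted p = 5.2e-05) and Foxo3 rose (0.88, adjusted p = 7.6e-08), both of them activators of autophagy genes. Of the factors of the amino acid response, Atf4 was lower (-0.41, adjusted p = 0.0037) and Ddit3 higher (0.85, adjusted p = 1.4e-05), and Trp53 rose (1.17, adjusted p = 7.2e-10).

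Lysosomal genes moved mostly in a single direction in Differentiated vs Undifferentiated and in the other direction in Lysfree vs Differentiated, and were split in Lysfree vs Undifferentiated (14 higher, 18 lower and 10 not called, median log2 fold change -0.09). Of 42 genes for lysosomal membrane proteins and hydrolases tested, 37 were lower and 2 higher in Differentiated vs Undifferentiated (median log2 fold change -1.28), and 35 were higher and 2 lower in Lysfree vs Differentiated (1.03), 22 of the 35 as DEGs. Ctsk (3.60), Gla (3.28), Ctsl (2.74), Hexa (2.10), Tpp1 (1.91), Lamp2 (1.85) and Neu1 (1.82), proteases, glycosidases and a membrane protein of lysosomes, were among those that rose in the latter. By contrast the 34 proteasome genes, which serve the other main route of protein breakdown, were mostly higher in Differentiated vs Undifferentiated (30 higher, 2 lower, median 0.71). In Lysfree vs Differentiated they were split (6 higher, 15 lower, median -0.17), with Psma1 (-1.64) and Psma5 (-1.64) as the DEGs. In Lysfree vs Undifferentiated 28 were higher and 1 lower (median 0.54). Of expressed genes 37.3% were higher and 37.7% lower in Differentiated vs Undifferentiated. The shares were 33.2% and 30% in Lysfree vs Differentiated, and 30.5% and 27.8% in Lysfree vs Undifferentiated. Whether the 40 genes differ from these lists was not tested, and their counts stand beside those of all genes above.

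**Figure D5:**
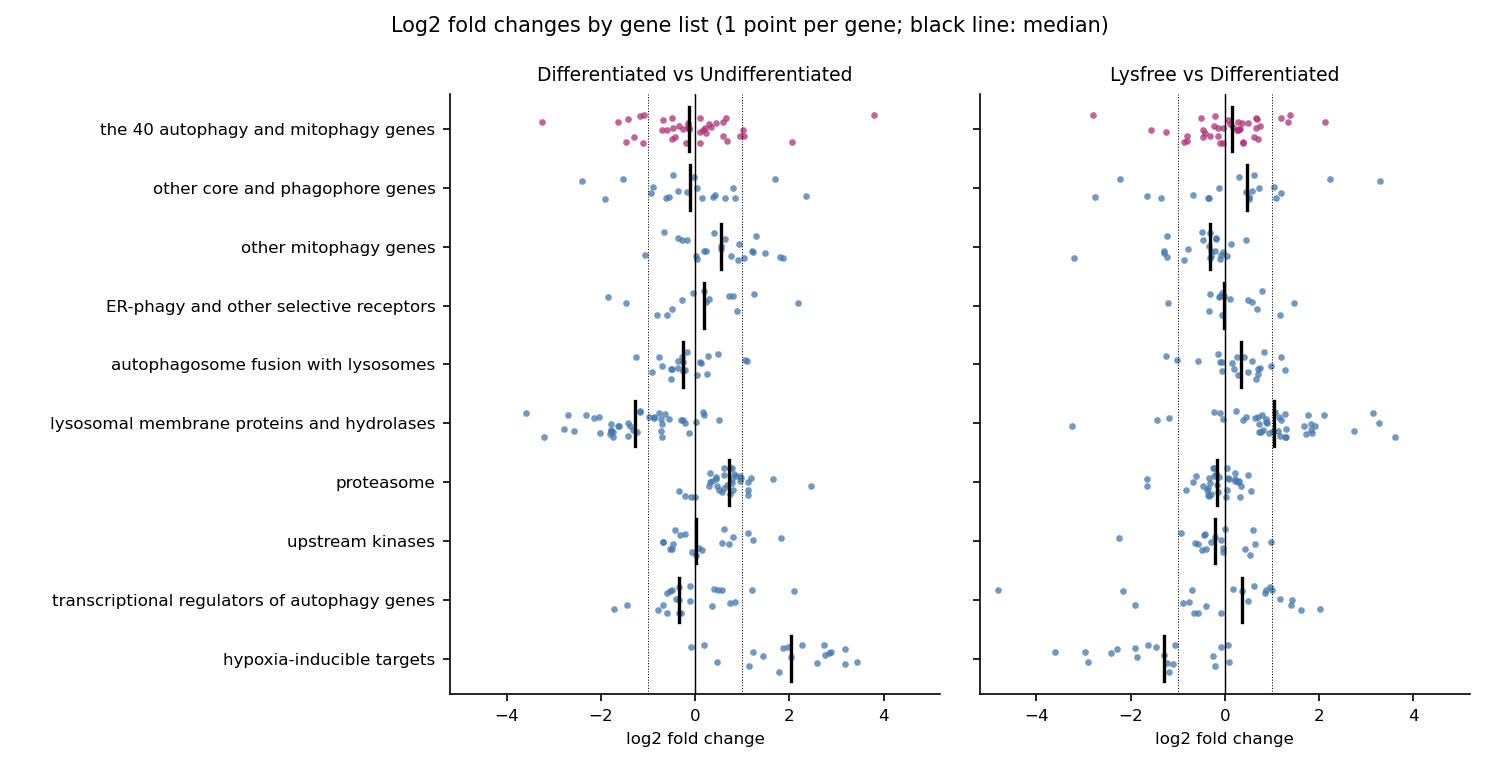
Log2 fold change of each gene (points) and the median (black line) for the 40 autophagy and mitophagy genes (purple) and 9 lists of related genes (blue) in Differentiated vs Undifferentiated and Lysfree vs Differentiated, with dotted lines at a 2-fold change. The medians of the 40 lie near 0 (-0.14 and 0.15), those of the lysosomal list at -1.28 and 1.03 and those of the hypoxia-inducible targets at 2.02 and -1.29.

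Other genes of the pathway were measured as well. For scale, 33.2% of expressed genes were higher and 30% lower in Lysfree vs Differentiated. The shares were 37.3% and 37.7% in Differentiated vs Undifferentiated. Whether the lists below differ from expressed genes was not tested. Of 20 further core and phagophore genes 12 were higher and 7 lower in Lysfree vs Differentiated. The apoptosis and Beclin 1 regulator Bcl2 (2.24), Trp53inp1 (1.20), Pik3c2a (1.08) and Tbc1d5 (1.05) rose, and Dapk1 (-2.22), Trp53inp2 (-1.65) and Nrbf2 (-1.35), a subunit of the PI3-kinase complex, fell. Of 23 other mitophagy genes tested 16 were higher and 4 lower in Differentiated vs Undifferentiated and 1 was higher and 13 lower in Lysfree vs Differentiated, with Nipsnap1 (-3.19), the prohibitin Phb2 (-1.29), Nipsnap2 (-1.28), Bcl2l13 (-1.22) and the channel Vdac1 (-1.22) as the DEGs. Several of these are abundant mitochondrial proteins with other roles. Of 19 upstream kinase genes 5 were higher and 9 lower in Lysfree vs Differentiated (26.3% and 47.4%). Prkag2 (-2.24), a regulatory subunit of AMP-activated kinase, was the DEG.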

How the data were processed

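RNA-seq libraries of 3T3-L1 cells, 3 per group, were grouped by their labels. The submitters' processing notes name HISAT2 2.0.5 and featureCounts 1.5.0-p3, and the build is mm10 (GRCm38). The annotation release and the strand setting are not given in the sources used here, so reads of genes that overlap on opposite strands may not be told apart. The authors deposited raw gene counts and FPKM made from them by library total and gene length. All columns of per-sample values were mapped to a sample by name (0 were not).

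Counts were tested over all genes with at least 1 count in a comparison, with TMM scaling and the edgeR 4.0.16 quasi-likelihood test (R 4.3.3) on the 6 libraries of each comparison without a replicate block, and p values were adjusted by Benjamini-Hochberg. Standard errors of log2 fold changes were derived from the fold change and the F statistic of this test. FPKM were used for levels within and between genes. The fit was tested on simulated data. Alternatives were DESeq2 1.42.0, limma 3.58.1 on log2(FPKM + 1) and log2(FPKM + 0.1), other filters on low values, a replicate block and leaving out each library. Libraries with the same number did not deviate together (correlations of deviations from group means -0.084 to 0.115 over 9 pairs). The members and lists were chosen with earlier results of these data known. All 40 members are named. Values per library are given for DEGs of any comparison and for the member of each role with the largest change in Lysfree vs Differentiated, and up to 8 DEGs of that comparison per related list are named, together with Tfeb, Tfe3, Mitf, Foxo1, Foxo3, Atf4, Ddit3 and Hif1a. Some items of the related lists are not reported here. Exon overlaps were taken from the GENCODE annotation.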

Additional observations from a re-analysis of the deposited data

How the results depend on the processing

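Of the results of single genes under the alternatives, 1782 kept direction and call, 84 lost the call and 37 gained it. A further 16 values, not called, changed sign, and 0 called values reversed. The number of the 40 genes higher by at least 2-fold in Lysfree vs Undifferentiated, 2, was 1 with edgeR's expression filter, with at least 10 counts in every library, with limma on log2(FPKM + 1) with and without a minimum mean of 1 FPKM, with limma on log2(FPKM + 0.1) and without Lysfree replicate 1. The gene was Bnip3, which passed under 2-fold. In Lysfree vs Differentiated the number higher by at least 2-fold, 4, was 3 in each limma fit, in which Atg16l2 was under 2-fold or not tested. The difference in the Gabarap share of the ATG8 family between Lysfree and Differentiated, 1.85 percentage points on FPKM, reversed to -6.08 on CPM, where the reads of the longer Map1lc3b are not divided by length. Leaving out each library in turn gave, for genes higher and lower, 14 to 15 and 17 to 19 in Differentiated vs Undifferentiated, 13 to 19 and 10 to 15 in Lysfree vs Differentiated, and 12 to 16 and 9 to 16 in Lysfree vs Undifferentiated. As DEGs the ranges were 3 to 4 and 7 to 8, 4 to 4 and 3 to 3, and 1 to 2 and 4 to 5. Replicate numbers did not pair the libraries, and with a replicate block 14 and 18, 15 and 11, and 14 and 14 genes were higher and lower in the 3 comparisons. Depth limits Atg16l2, with 20 to 389 counts. The causes of these shifts were not tested.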

Other observations

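Fusion of autophagosomes with lysosomes and further selective receptors were not part of the 40 genes. Of 22 genes for tethers, SNAREs and other fusion factors, 5 were higher and 14 lower in Differentiated vs Undifferentiated (median log2 fold change -0.26), and 12 were higher and 2 lower in Lysfree vs Differentiated (0.35). Of expressed genes 37.3% were higher and 37.7% lower in the former comparison, and 33.2% and 30% in the latter. Arl8b, the GTPase that moves lysosomes outward along microtubules, was at 40.3, 40.2 and 38.9 FPKM in Differentiated and 123, 80.1 and 75.3 in Lysfree libraries (1.28 ± 0.13 (SE), adjusted p = 4.8e-08), and the tethering subunit Vps18 at 10.2, 11.0 and 9.59 and 20.8, 23.7 and 23.2 (1.20 ± 0.10, adjusted p = 2.9e-09). Both were higher in all Lysfree libraries. Tecpr1 (-1.24) and Plekhm1 (-1.01), which also act in fusion, were lower.

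Of 15 receptors for endoplasmic reticulum, glycogen and other cargo that were tested, 5 were higher and 3 lower in Lysfree vs Differentiated (median -0.01). Wdr81 (1.48) and the reticulum receptor Retreg2 (1.18) rose. Stbd1, which binds glycogen, was at 2.07, 2.34 and 2.73 FPKM in Undifferentiated, 11.0, 12.2 and 9.42 in Differentiated and 3.66, 5.36 and 4.41 in Lysfree libraries and fell in Lysfree vs Differentiated (-1.21 ± 0.15, adjusted p = 1.3e-06). Its Differentiated libraries lay above both other groups. Of all expressed genes 33.2% were higher and 30% lower in this comparison, against 33.3% and 20.0% of these 15.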
